A study of Mus musculus with 22 samples.

Results

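JQ1 was set against vehicle in the CD45-negative cells of EMT6 tumours, the fraction enriched for tumour cells. EMT6 is a mouse mammary carcinoma line, and 200000 of its cells were injected into each inguinal fat pad of wild-type BALB/c mice aged 5 to 6 weeks. Treatment began at about 5 to 7 days, once tumours could be felt, and the JQ1 group was gavaged daily with 50 mg/kg while the other group received vehicle. Tumours were dissociated at the endpoint, beads against CD45, a surface protein of leukocytes, were used to part the cells, and RNA was sequenced from each fraction. The genes described are those with at least 1 FPKM (fragments per transcript length and library size) in at least 2 libraries of the CD45-negative table, which were 10780 of 24353. The comparison used 4 of the 22 libraries, 2 of vehicle and 2 of JQ1, and the other 8 CD45-negative libraries, from mice given JQ1 with anti-PD-L1, JQ1 with paclitaxel or all 3 drugs, entered the same fit. Each of the groups compared carries 1 mouse code, with a right and a left tumour that may come from 1 animal. The p-values rest on a spread pooled over all groups of the fit, and the groups given paclitaxel carry several mouse codes. That spread thus mixes tumours of 1 code with tumours of different codes. With 1 code per compared group, JQ1 and animal may not be told apart. Both added drugs were given on top of JQ1 only. The question was which transcripts changed with JQ1 alone.

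JQ1 is a small molecule that occupies the acetyl-lysine pockets of the BET family of proteins. The family reads acetylated histones at promoters and enhancers and is linked to P-TEFb, the kinase that releases paused RNA polymerase II into elongation. In many cell types BET inhibition is known for lowering Myc and inflammatory genes and for raising HEXIM1 and histone genes.

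Each fold change is the JQ1 mean minus the vehicle mean of log2(FPKM + 1), ± its standard error. The added 1 shrinks the change of weakly expressed genes. Genes rose or fell, in what follows, when the adjusted p of limma's moderated test (Benjamini-Hochberg) was under 0.05. JQ1 changed 1592 of the 10780 genes (14.8%), of which 549 rose (5.09%) and 1043 fell (9.68%). The median over all tested genes was −0.05. Falls were also larger than rises: 56 genes fell and 3 rose by more than 2 log2 units. With the FPKM of each library rescaled to a common sum the median moved to 0.10, and 852 genes were higher and 724 lower. With quantile normalization 752 were higher and 819 lower. The share of rises among the calls (34.5%, 54.1% and 47.9%) thus depends on the scale.

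Read totals are unknown, but low FPKM values come in steps, from which relative depths (geometric mean of the fraction set to 1) were derived. They were 1.79 and 1.13 for vehicle and 0.554 and 0.653 for JQ1, so both JQ1 libraries were shallower than both vehicle libraries. With relative depth as a covariate 310 genes were called, 64 higher and 246 lower, and 281 of these were among the 1592 with the same direction. The libraries correlated across genes at 0.983 within vehicle, 0.978 within JQ1 and 0.940 to 0.955 between them. The number of calls was 694 without vehicle replicate 1, 459 without vehicle replicate 2, 424 without JQ1 replicate 1 and 1120 without JQ1 replicate 2, and 281 of the 1592 genes (57 higher, 224 lower) kept their call in each of these 4 fits. A fit without 1 of the 4 libraries assumes that the lone library of its group varies like the other groups. With 1 value per mouse code 21 genes were called, 3 higher and 18 lower. In what follows, "kept its call" means in each of the 4 fits that leave out 1 of the compared libraries. Those fits reuse the same mouse codes, so a kept call does not show that a change would recur in other mice.

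**Figure D1:**
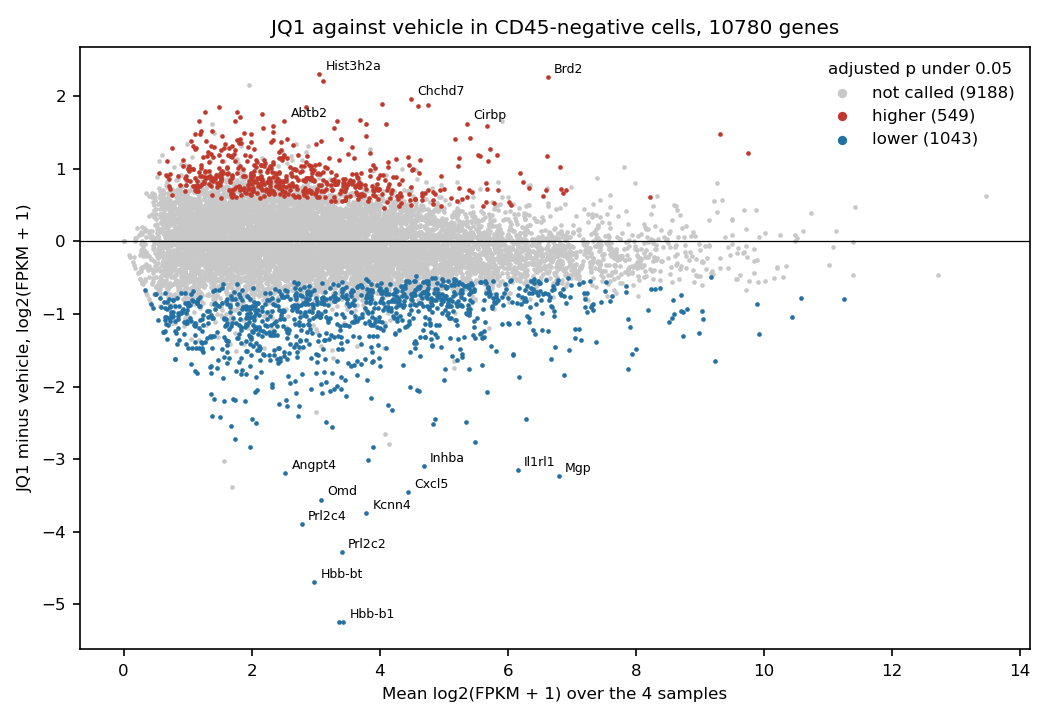
Each point is 1 of the 10780 genes, with its mean log2(FPKM + 1) over the 4 samples on the horizontal axis and the JQ1 minus vehicle difference on the vertical axis. Red points (549) were called higher, blue points (1043) lower and grey points (9188) were not called, and the largest differences are falls, down to −5.24.

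Brd2, a gene of the BET family itself, measured 35.8 and 54.2 FPKM with vehicle and 223 and 209 FPKM with JQ1. The JQ1 values lay far above the vehicle values and close to each other, and Brd2 rose (2.27 ± 0.33, adjusted p = 0.00152) and kept its call (adjusted p = 0.0309 in the fit with depth). Brd3, another gene of the family, measured 8.98 and 8.52 FPKM with vehicle and 9.45 and 9.28 FPKM with JQ1 and was not past the threshold (0.09 ± 0.16, adjusted p = 0.749). Of the 26 tested P-TEFb and elongation genes, 2 rose and none fell, against 5.09% and 9.68% of all genes, with a median of 0.06. They were Hexim1 and Mepce, which encode proteins that hold P-TEFb in its inactive complex. Hexim1 measured 0.768 and 1.38 FPKM with vehicle and 4.08 and 3.34 FPKM with JQ1. Its 2 groups did not overlap, and it rose (1.20 ± 0.24, adjusted p = 0.00760), with adjusted p = 0.0654 to 0.0720 without vehicle replicate 1 or JQ1 replicate 1 and 0.140 with relative depth. Mepce rose less (0.77 ± 0.20, adjusted p = 0.0248) and missed the threshold without each of the 4 libraries (adjusted p = 0.0736 to 0.133). Higher genes of the list numbered 0, 1, 0 and 1 without vehicle replicate 1, vehicle replicate 2, JQ1 replicate 1 and JQ1 replicate 2.

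Polr2a, the gene of the largest RNA polymerase II subunit, measured 5.00 and 4.36 FPKM with vehicle and 19.9 and 14.5 FPKM with JQ1. It rose (1.66 ± 0.31, adjusted p = 0.00543), although adjusted p was 0.0643 without JQ1 replicate 1. Supt5, a pausing and elongation factor, stood at 35.8 and 39.0 FPKM with vehicle and 48.1 and 48.0 FPKM with JQ1 (0.35 ± 0.14, adjusted p = 0.0949). Over all genes 5.09% rose and 9.68% fell. Among 7 tested genes often used to read out BET inhibitors, the 2 that rose were Hexim1 and the histone gene Hist1h2bk (0.93 ± 0.28, adjusted p = 0.0456, and 0.0659 to 0.369 without vehicle replicate 2, JQ1 replicate 1 or JQ1 replicate 2), and the 2 that fell were Ccr2 and Zmynd8. Ccr2, the chemokine receptor of inflammatory monocytes, measured 2.52 and 3.55 FPKM with vehicle and 0.133 and 0.188 FPKM with JQ1 and fell (−1.79 ± 0.32, adjusted p = 0.00385). It kept its call. With relative depth none of the 7 genes was higher and 2 were lower. Zmynd8, which encodes a chromatin reader, fell from 6.14 and 7.85 to 3.52 and 2.23 FPKM (−1.06 ± 0.23, adjusted p = 0.0110), with adjusted p = 0.0710 to 0.0950 without vehicle replicate 2 or JQ1 replicate 2.

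Histone genes were the group with the most rises. Of 64 tested, 25 rose (5.09% of all genes did) and none fell, and the median was 0.66 against −0.05 over all genes. Their summed level was 1625 and 1431 FPKM with vehicle and 2634 and 2903 FPKM with JQ1, and both JQ1 sums lay above both vehicle sums. These sums are of histone RNA captured by the low-input libraries, and RNA with and without a poly(A) tail was not told apart. Rises were spread over the core and linker classes: 9 of 14 H2B genes (median 1.01), 6 of 12 H4 genes (1.11), 4 of 11 H3 genes (0.61), 2 of 6 linker H1 genes (0.66) and 4 of 21 H2A genes (−0.03). Higher histone genes numbered 19, 10, 13 and 18 without vehicle replicate 1, vehicle replicate 2, JQ1 replicate 1 and JQ1 replicate 2, and 9 with relative depth.

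Hist3h2a, which had the highest fold change of all called genes, measured 3.90 and 1.86 FPKM with vehicle and 22.3 and 13.7 FPKM with JQ1 (2.30 ± 0.32, adjusted p = 0.00119). Hist2h2aa1, another H2A gene, measured 9.10 and 8.38 FPKM with vehicle and 28.8 and 28.8 FPKM with JQ1 (1.62 ± 0.21, adjusted p = 0.000994), and Hist1h3d, an H3 gene, 0.410 and 0.155 FPKM with vehicle and 3.88 and 2.36 FPKM with JQ1 (1.67 ± 0.28, adjusted p = 0.00291). In each of them the 2 groups were well apart, and all 3 kept their calls, also with relative depth. Clustered histone genes have near-identical copies, so the split of reads between them is uncertain. H1f0, a linker histone gene outside the clusters that was singled out after its values were seen, measured 73.6 and 55.1 FPKM with vehicle and 148 and 143 FPKM with JQ1 and rose (1.18 ± 0.20, adjusted p = 0.00336), and it also kept its call. H3f3b, one of the genes of the replacement histone H3.3, was the most abundant histone gene, at 623 and 509 FPKM with vehicle and 1251 and 1385 FPKM with JQ1 (1.22 ± 0.29, adjusted p = 0.0154, and 0.0604 to 0.107 without vehicle replicate 2, JQ1 replicate 1 or JQ1 replicate 2). The abundant variant genes H2afz (0.26 ± 0.21, adjusted p = 0.413) and H2afy (−0.17 ± 0.15, adjusted p = 0.465) were not past the threshold.

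Other genes among the 12 highest fold changes had varied functions. Habp4, which encodes a hyaluronan and RNA binding protein, measured 13.2 and 13.1 FPKM with vehicle and 50.7 and 51.1 FPKM with JQ1, and with this small spread had the lowest adjusted p of the named rises (1.88 ± 0.14, adjusted p = 3.82e-05). Chchd7, a mitochondrial protein gene, measured 11.1 and 9.65 FPKM with vehicle and 40.3 and 46.4 FPKM with JQ1 (1.97 ± 0.23, adjusted p = 0.000500). Mknk2, the gene of a kinase that phosphorylates the cap-binding factor eIF4E, measured 12.1 and 11.2 FPKM with vehicle and 51.6 and 39.4 FPKM with JQ1 (1.87 ± 0.28, adjusted p = 0.00180). In all 3 the margin between the lowest JQ1 and the highest vehicle value was wide, although absence of overlap was a condition for the 12. Efnb2, the gene of the Eph receptor ligand ephrin-B2, rose (1.85 ± 0.28, adjusted p = 0.00202), as did Abtb2 (1.66 ± 0.24, adjusted p = 0.00172), and these 5 genes kept their calls. Cirbp, the cold-inducible RNA-binding protein gene, measured 28.6 and 17.4 FPKM with vehicle and 58.9 and 85.5 FPKM with JQ1 (1.62 ± 0.31, adjusted p = 0.00575), with adjusted p = 0.0654 without vehicle replicate 2.

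The rise of the nuclear RNA Neat1, the scaffold of paraspeckles, was uneven, at 5.61 and 1.45 FPKM with vehicle and 35.9 and 8.34 FPKM with JQ1 (2.20 ± 0.55, adjusted p = 0.0204). JQ1 replicate 1 was far above replicate 2, and adjusted p was 0.174 to 0.200 without vehicle replicate 2 or JQ1 replicate 1. Txnip, the gene of an inhibitor of thioredoxin and of glucose uptake, was uneven in the same way, at 7.63 and 7.32 FPKM with vehicle and 42.4 and 21.9 FPKM with JQ1 (1.90 ± 0.49, adjusted p = 0.0229, and 0.0857 to 0.195 without vehicle replicate 1, vehicle replicate 2 or JQ1 replicate 1). Slc9a3r1, a scaffold of membrane transporters, completed the 12 (1.68 ± 0.32, adjusted p = 0.00568, and 0.0698 without JQ1 replicate 1). Of 11 noncoding RNAs of the nucleus and of snoRNA hosts, 3 rose (Neat1, Meg3 and Gas5) and none fell, and 1, 0, 0 and 3 were higher without the 4 libraries in turn, in the order vehicle 1, vehicle 2, JQ1 1 and JQ1 2. Over all genes 5.09% rose and 9.68% fell. Malat1, the most abundant of the 11 noncoding RNAs, measured 186 and 131 FPKM with vehicle and 491 and 208 FPKM with JQ1 (1.03 ± 0.46, adjusted p = 0.151).

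Of 22 SR proteins and splicing factors 5 rose and none fell, against 5.09% and 9.68% of all genes, with a median of 0.22. Tra2a, which encodes a splicing activator, rose from 8.21 and 10.6 to 20.9 and 19.9 FPKM (1.05 ± 0.18, adjusted p = 0.00315) and kept its call. Clk2, an SR protein kinase gene, measured 3.07 and 2.06 FPKM with vehicle and 7.88 and 6.68 FPKM with JQ1 (1.23 ± 0.26, adjusted p = 0.0103), with adjusted p = 0.0875 to 0.0930 without vehicle replicate 2 or JQ1 replicate 1. Higher members numbered 3, 1, 1 and 3 without vehicle replicate 1, vehicle replicate 2, JQ1 replicate 1 and JQ1 replicate 2, and 0 with relative depth. With FPKM rescaled to a common sum they numbered 9, and with quantile normalization 10.

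**Figure D2:**
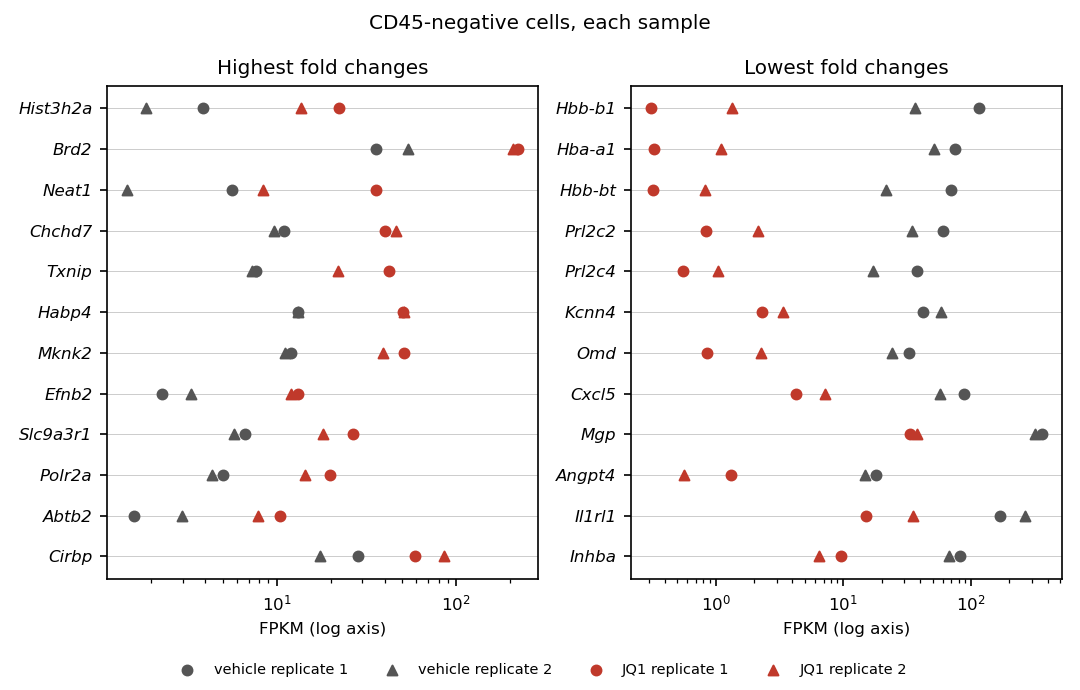
FPKM on a log axis in each of the 4 samples for the 12 highest (left) and 12 lowest (right) fold changes among called genes of sufficient level. Circles are replicate 1 and triangles replicate 2, grey for vehicle and red for JQ1. The 2 groups lie apart in every gene because only genes without overlap were eligible.

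The deepest falls were in haemoglobin genes. Hbb-b1 measured 116 and 36.5 FPKM with vehicle and 0.311 and 1.36 FPKM with JQ1 (−5.24 ± 0.54, adjusted p = 0.000340), Hbb-bt 69.9 and 21.6 FPKM with vehicle and 0.323 and 0.821 FPKM with JQ1 (−4.69 ± 0.48, adjusted p = 0.000340) and Hba-a1 74.9 and 51.1 FPKM with vehicle and 0.328 and 1.1 FPKM with JQ1 (−5.24 ± 1.02, adjusted p = 0.00657). All 3 were near 1 FPKM or below with JQ1, and vehicle replicate 1 was above vehicle replicate 2 in each. The 2 beta-globin genes kept their calls, and Hba-a1 had adjusted p = 0.0630 without JQ1 replicate 1. These genes mark red blood cells, and in bulk samples fewer cells of a type and less RNA per cell cannot be told apart. Globin copies share reads, and of the 4 libraries Hba-a2 was above 1 FPKM in vehicle replicate 1 alone (70.0 FPKM).

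The proliferins, placental and growth-related prolactin family genes, held the next deepest falls. Prl2c2 measured 60.4 and 34.8 FPKM with vehicle and 0.844 and 2.15 FPKM with JQ1 (−4.28 ± 0.78, adjusted p = 0.00439) and Prl2c4 37.8 and 17.2 FPKM with vehicle and 0.558 and 1.04 FPKM with JQ1 (−3.89 ± 0.70, adjusted p = 0.00414). Both groups were wide, and absence of overlap was a condition for naming genes by their low fold changes, as both genes were. These 2 of 4 tested members are near-identical copies, and adjusted p was 0.0520 for Prl2c2 without JQ1 replicate 1 and 0.0622 and 0.0578 with relative depth. Kcnn4, the gene of a calcium-activated potassium channel, measured 42.2 and 58.3 FPKM with vehicle and 2.29 and 3.36 FPKM with JQ1 (−3.74 ± 0.45, adjusted p = 0.000664). It kept its call, and its relative Kcnn1 also fell (−1.47 ± 0.21, adjusted p = 0.00146), while Kcna3 rose (0.85 ± 0.26, adjusted p = 0.0424, and 0.0685 to 0.236 without each library in turn) among the 8 tested potassium channel genes. Omd, which encodes osteomodulin, a small proteoglycan of mineralised matrix, measured 32.6 and 24.0 FPKM with vehicle and 0.860 and 2.27 FPKM with JQ1 (−3.56 ± 0.48, adjusted p = 0.00104), and Angpt4, an angiopoietin gene, 18.2 and 14.8 FPKM with vehicle and 1.33 and 0.564 FPKM with JQ1 (−3.19 ± 0.33, adjusted p = 0.000340). Both kept their calls.

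Several secreted inflammatory factors were among the falls, where 9.68% of all genes fell and 5.09% rose. Of 19 colony-stimulating factors and cytokines 6 fell and none rose, with a median of −1.15, and of 21 chemokines 5 fell and 1 rose (median −0.03, or 0.14 with FPKM rescaled to a common sum). Il33, the gene of an alarmin released by damaged cells, measured 38.2 and 40.0 FPKM with vehicle and 3.78 and 4.20 FPKM with JQ1. Replicates were nearly equal within each group, and it had the lowest adjusted p of the named falls (−3.01 ± 0.21, adjusted p = 2.74e-05) and kept its call. The gene of its receptor, Il1rl1, measured 168 and 267 FPKM with vehicle and 15.0 and 35.0 FPKM with JQ1 (−3.15 ± 0.62, adjusted p = 0.00676), with adjusted p = 0.0607 to 0.0796 without vehicle replicate 2 or JQ1 replicate 1. The neutrophil chemoattractant gene Cxcl5 measured 88.0 and 57.0 FPKM with vehicle and 4.27 and 7.15 FPKM with JQ1 (−3.46 ± 0.55, adjusted p = 0.00243). Its relative Cxcl1, the most abundant chemokine gene here, measured 1162 and 978 FPKM with vehicle and 290.0 and 402 FPKM with JQ1 (−1.64 ± 0.29, adjusted p = 0.00362). Both kept their calls, with adjusted p = 0.0582 and 0.0554 with relative depth. Ccl12, a monocyte chemoattractant gene, measured 19.7 and 20.9 FPKM with vehicle and 6.87 and 3.08 FPKM with JQ1 (−1.91 ± 0.33, adjusted p = 0.00350) and kept its call, also with relative depth.

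Csf3, the gene of the granulocyte growth factor G-CSF, was uneven in vehicle, at 65.1 and 22.9 FPKM with vehicle and 5.05 and 4.18 FPKM with JQ1 (−2.83 ± 0.75, adjusted p = 0.0266, and 0.0902 to 0.169 without vehicle replicate 1, JQ1 replicate 1 or JQ1 replicate 2). Figf, which encodes the lymphatic growth factor VEGF-D, measured 8.69 and 9.04 FPKM with vehicle and 1.92 and 1.17 FPKM with JQ1 (−1.97 ± 0.26, adjusted p = 0.000939) and kept its call. The chemokine gene that rose was Ccl3, from 19.3 and 32.2 to 71.6 and 66.2 FPKM (1.43 ± 0.41, adjusted p = 0.0359, and 0.0633 to 0.200 without each library in turn). Abundant members were not past the threshold: Cxcl2 (−0.12 ± 0.38, adjusted p = 0.861), Ccl2 (−0.52 ± 0.31, adjusted p = 0.269), Vegfa (−0.28 ± 0.24, adjusted p = 0.456) and Csf1 (−0.20 ± 0.21, adjusted p = 0.561). Leaving out vehicle replicate 1, vehicle replicate 2, JQ1 replicate 1 or JQ1 replicate 2 gave 4, 3, 3 and 3 lower cytokines and 4, 3, 3 and 3 lower chemokines, and with relative depth 2 and 2. None of 8 leukocyte markers was called, and their summed level was 212 and 262 FPKM with vehicle and 342 and 229 FPKM with JQ1. Of 12 genes of a longer leukocyte list none was called (median 0.35), while with relative depth 1 was lower (median −0.66).

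NF-kappaB is a family of transcription factors that is held in the cytoplasm by inhibitors and drives inflammatory genes. Of 25 tested subunits, inhibitors and targets 8 fell (9.68% of all genes did) and none rose, with a median of −0.53. Bcl3, an atypical inhibitor that can also activate, measured 25.7 and 19.7 FPKM with vehicle and 5.90 and 5.31 FPKM with JQ1 (−1.83 ± 0.28, adjusted p = 0.00202). Vcam1, the gene of an adhesion receptor for leukocytes, measured 73.9 and 54.7 FPKM with vehicle and 20.4 and 19.4 FPKM with JQ1 (−1.63 ± 0.21, adjusted p = 0.000908). Tnfaip3, which encodes the feedback inhibitor A20, measured 68.8 and 71.7 FPKM with vehicle and 27.6 and 27.1 FPKM with JQ1 (−1.33 ± 0.21, adjusted p = 0.00242). In all 3 the groups were far apart and the calls were kept, also with relative depth. The most abundant members were not called, Nfkbia at 1552 and 729.5 FPKM with vehicle and 701 and 637 FPKM with JQ1 (−0.67 ± 0.32, adjusted p = 0.177) and Ptgs2, the inducible cyclooxygenase gene, at 276 and 241 FPKM with vehicle and 276 and 335 FPKM with JQ1 (0.24 ± 0.30, adjusted p = 0.624). Lower NF-kappaB genes numbered 5, 4, 3 and 4 without vehicle replicate 1, vehicle replicate 2, JQ1 replicate 1 and JQ1 replicate 2, and 4 with relative depth.

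To show the regulatory sequence of genes in this group, the 250 bases before the start of Tnfaip3 and Cxcl1 were read from RefSeq promoters of GRCm38.p6, which is not the build of the deposited files. They were printed because they are the members lower with JQ1, among NF-kappaB genes and chemokines, whose window matches the pattern GGANTTTCC. This is a narrow form of the kappaB site and was searched on both strands (matches in capitals). Other forms were not searched, so unmarked bases may hold further sites. The windows are Tnfaip3 chr10:19015411-19015660 (minus strand) and Cxcl1 chr5:90890995-90891244 (plus strand), given 5′ to 3′ in the direction of the gene.
Tnfaip3: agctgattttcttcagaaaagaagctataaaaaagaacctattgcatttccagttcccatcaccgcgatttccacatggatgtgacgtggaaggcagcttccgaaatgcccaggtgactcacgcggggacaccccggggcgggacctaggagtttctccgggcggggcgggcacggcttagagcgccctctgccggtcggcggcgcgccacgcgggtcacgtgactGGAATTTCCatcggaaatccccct
Cxcl1: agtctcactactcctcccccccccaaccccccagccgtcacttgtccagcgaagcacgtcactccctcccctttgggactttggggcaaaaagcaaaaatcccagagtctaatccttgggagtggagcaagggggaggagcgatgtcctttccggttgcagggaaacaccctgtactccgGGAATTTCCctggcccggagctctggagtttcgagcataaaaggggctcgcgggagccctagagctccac
A match to this pattern was in 1.05% of 27025 mouse promoters of this length. It was in 4 of the 21 NF-kappaB list members with a promoter in the table and in 4 of the 14 chemokines with one. Members that were not called also held it, among them Nfkbia and Cxcl2.

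The interferon and antigen presentation lists held further falls. Of 30 type I interferon genes 8 fell and none rose, against 9.68% and 5.09% of all genes (median −0.47). Ifit3, an antiviral effector gene, measured 2.86 and 3.49 FPKM with vehicle and 0.124 and 0.245 FPKM with JQ1 (−1.81 ± 0.23, adjusted p = 0.000795). It was close to 0 with JQ1 and kept its call, also with relative depth. Bst2 and Isg15 were singled out for their promoters, after their values were seen. Bst2, which encodes tetherin, measured 156 and 138 FPKM with vehicle and 70.7 and 80.1 FPKM with JQ1 (−0.95 ± 0.17, adjusted p = 0.00387), and Isg15, a ubiquitin-like modifier gene, 36.9 and 36.2 FPKM with vehicle and 14.0 and 25.7 FPKM with JQ1 (−0.91 ± 0.25, adjusted p = 0.0312). Bst2 kept its call (adjusted p = 0.0921 with relative depth), and Isg15 had adjusted p = 0.116 to 0.279 without vehicle replicate 1, vehicle replicate 2 or JQ1 replicate 1. Usp18, the gene of the protease that removes ISG15, measured 8.07 and 9.37 FPKM with vehicle and 3.21 and 4.24 FPKM with JQ1 (−1.05 ± 0.22, adjusted p = 0.00864), with adjusted p = 0.0736 to 0.0875 without vehicle replicate 2 or JQ1 replicate 1. Irf7, the master regulator of the response, measured 21.2 and 24.7 FPKM with vehicle and 16.2 and 25.6 FPKM with JQ1 (−0.16 ± 0.23, adjusted p = 0.678) with overlapping groups. Lower members numbered 3, 3, 2 and 6 without vehicle replicate 1, vehicle replicate 2, JQ1 replicate 1 and JQ1 replicate 2, and 2 with relative depth. Of 15 genes induced mainly by interferon gamma none rose or fell (median −0.36). Of the 20 genes of interferon and antiviral sensing 1 fell, Tmem173, the gene of the DNA sensor adaptor STING (13.3 and 20.1 FPKM with vehicle and 6.30 and 7.98 FPKM with JQ1, −1.10 ± 0.21, adjusted p = 0.00629, and 0.0684 to 0.0706 without vehicle replicate 2 or JQ1 replicate 1).

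Of the 8 interferon genes that fell, 6 had a promoter in the RefSeq table, and 3 of these held an interferon-stimulated response element, a site of interferon-activated transcription factors, searched on both strands as GAAA, any 2 bases and GAAA. Their windows of 250 bases before the gene start are shown with the matches in capitals: Ifit3 chr19:34583279-34583528 (plus strand), Isg15 chr4:156200819-156201068 (minus strand) and Bst2 chr8:71537473-71537722 (minus strand), all of GRCm38.p6.
Ifit3: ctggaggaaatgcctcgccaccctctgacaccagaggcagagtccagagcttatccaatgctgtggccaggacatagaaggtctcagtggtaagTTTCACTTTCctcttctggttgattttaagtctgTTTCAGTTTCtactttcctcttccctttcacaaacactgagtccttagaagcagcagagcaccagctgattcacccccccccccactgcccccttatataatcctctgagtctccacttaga
Isg15: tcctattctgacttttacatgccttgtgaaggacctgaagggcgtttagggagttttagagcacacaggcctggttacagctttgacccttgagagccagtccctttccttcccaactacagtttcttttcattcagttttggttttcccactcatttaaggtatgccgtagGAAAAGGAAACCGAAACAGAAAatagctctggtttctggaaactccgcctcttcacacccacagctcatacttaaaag
Bst2: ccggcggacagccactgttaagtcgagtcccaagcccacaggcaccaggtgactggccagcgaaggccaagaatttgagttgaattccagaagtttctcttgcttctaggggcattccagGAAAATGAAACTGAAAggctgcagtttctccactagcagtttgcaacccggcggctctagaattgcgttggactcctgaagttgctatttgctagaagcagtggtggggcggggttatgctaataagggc
In Ifit3 both matches are on the opposite strand, and in Isg15 and Bst2 the matches overlap one another. The element was in 3.04% of the 27025 promoters and in 10 of the 21 members of the list with a promoter, so it was also present in members that were not called.

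In the MHC class I pathway, which displays peptides to CD8 T cells, 9 of 21 genes fell (9.68% of all genes did) and none rose, with a median of −0.52. The non-classical class I genes H2-M3, H2-T23 and H2-Q7 kept their calls, although class I genes are alike in sequence and may share reads. H2-M3 measured 36.0 and 40.0 FPKM with vehicle and 13.0 and 13.2 FPKM with JQ1 (−1.47 ± 0.18, adjusted p = 0.000693). H2-T23 measured 222 and 224 FPKM with vehicle and 115 and 116 FPKM with JQ1 (−0.94 ± 0.17, adjusted p = 0.00414). H2-Q7 measured 187 and 215 FPKM with vehicle and 104 and 109.7 FPKM with JQ1 (−0.90 ± 0.16, adjusted p = 0.00357). In each the JQ1 samples lay below both vehicle samples. With relative depth H2-T23 had adjusted p = 0.0806. The abundant shared light chain gene B2m was 3448 and 2914 FPKM with vehicle and 2139 and 2466 FPKM with JQ1 (−0.46 ± 0.20, adjusted p = 0.145) and the classical gene H2-D1 2207 and 2418 FPKM with vehicle and 1912 and 1788 FPKM with JQ1 (−0.32 ± 0.18, adjusted p = 0.243), and neither passed the threshold. The list had 4, 4, 4 and 7 members lower without vehicle replicate 1, vehicle replicate 2, JQ1 replicate 1 and JQ1 replicate 2, 2 with relative depth, and 5 with FPKM rescaled to a common sum or quantile normalized. Cd274, the gene of PD-L1, measured 2.62 and 1.48 FPKM with vehicle and 1.62 and 1.78 FPKM with JQ1 (−0.15 ± 0.54, adjusted p = 0.875), and its groups overlapped.

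**Figure D3:**
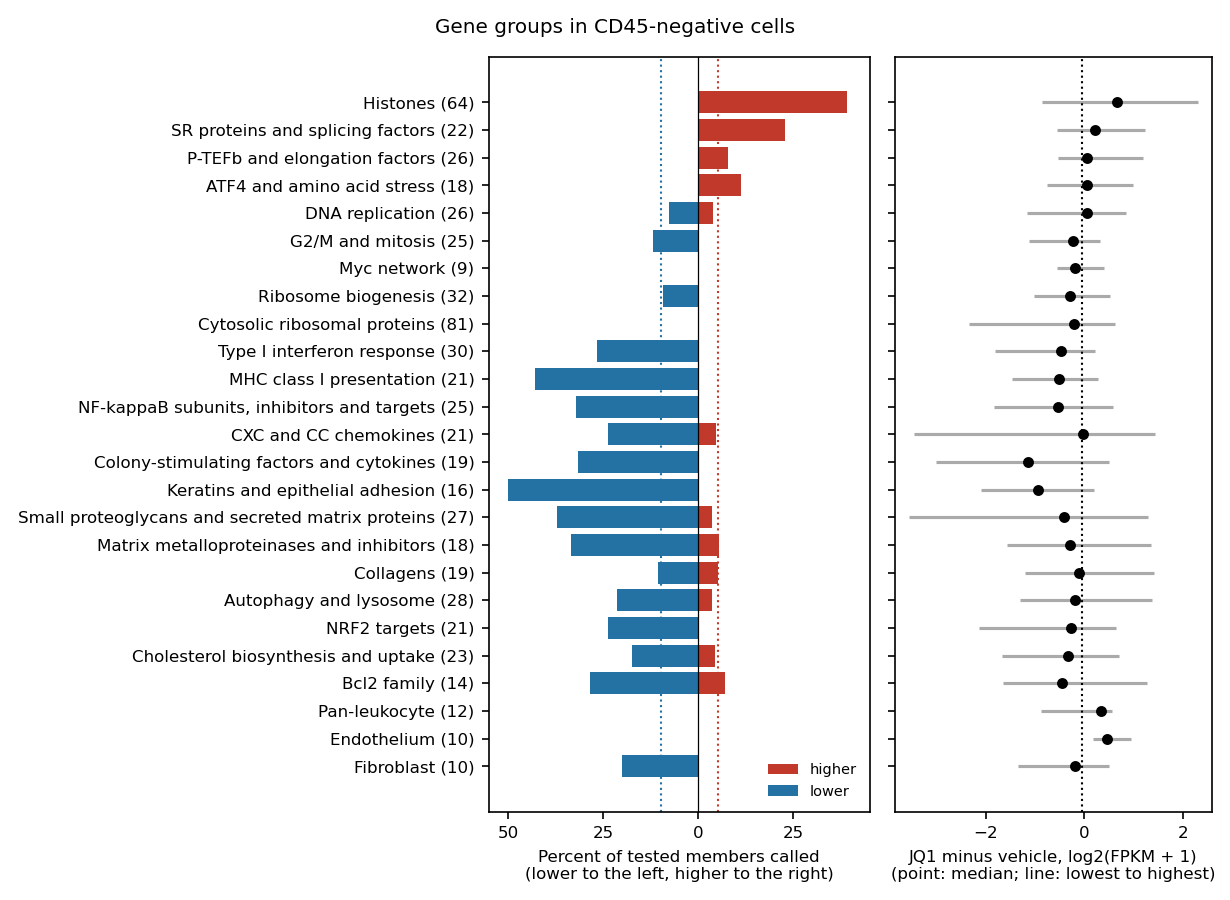
Left, the percentage of tested members of 25 gene groups (number of tested members in brackets) that were called lower (blue) or higher (red) with JQ1, with dotted lines at the shares over all genes, 9.68% and 5.09%. Right, the median (point) and the lowest to highest fold change (line) of each group, with a dotted line at −0.05, the median of all genes. In the left panel histones reach furthest to the right, and keratins and epithelial adhesion genes furthest to the left.

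Of 16 keratin and epithelial adhesion genes 8 fell and none rose, against 9.68% and 5.09% of all genes, with a median of −0.94. Trp63, the gene of the basal epithelial transcription factor p63, measured 4.44 and 4.26 FPKM with vehicle and 0.390 and 0.116 FPKM with JQ1 (−2.10 ± 0.23, adjusted p = 0.000413) and kept its call, also with relative depth. Krt18, a keratin of simple epithelium, measured 42.7 and 79.9 FPKM with vehicle and 14.6 and 19 FPKM with JQ1 (−1.75 ± 0.44, adjusted p = 0.0208), with adjusted p = 0.142 to 0.164 without vehicle replicate 2 or JQ1 replicate 1. Pkp3, a desmosomal gene, measured 8.71 and 9.97 FPKM with vehicle and 2.04 and 2.69 FPKM with JQ1 (−1.62 ± 0.31, adjusted p = 0.00585, and 0.0506 to 0.0612 without the same libraries). Lower members of the list numbered 6, 1, 3 and 5 without vehicle replicate 1, vehicle replicate 2, JQ1 replicate 1 and JQ1 replicate 2, and 1 with relative depth. Among defining markers Krt8 was abundant, at 453 and 792 FPKM with vehicle and 278 and 333 FPKM with JQ1, while Epcam stayed under 5 FPKM and Cdh1, the E-cadherin gene, under 1 FPKM in all 4 samples.

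Of 27 small proteoglycans and secreted matrix proteins 10 fell and 1 rose (median −0.42). Mgp, an inhibitor of matrix calcification, measured 362 and 316 FPKM with vehicle and 33.2 and 37.5 FPKM with JQ1 (−3.23 ± 0.58, adjusted p = 0.00415), and Ogn, a proteoglycan gene, 240.3 and 207 FPKM with vehicle and 58.6 and 64.2 FPKM with JQ1 (−1.85 ± 0.29, adjusted p = 0.00221). Both kept their calls, with adjusted p = 0.0735 and 0.0525 with relative depth. Serpinf1, the gene of the anti-angiogenic factor PEDF, fell to a similar extent (−1.87 ± 0.40, adjusted p = 0.00975, and 0.0519 to 0.0666 without vehicle replicate 2 or JQ1 replicate 2). The gene that rose was Fbn1, a microfibril gene (1.30 ± 0.41, adjusted p = 0.0493, and 0.0736 to 0.271 without each library in turn). Lower matrix genes numbered 5, 3, 4 and 5 without vehicle replicate 1, vehicle replicate 2, JQ1 replicate 1 and JQ1 replicate 2, 1 with relative depth and 6 with FPKM rescaled to a common sum. Of 19 collagens 2 fell and 1 rose, shares near those of all genes (9.68% and 5.09%). Without vehicle replicate 1, vehicle replicate 2, JQ1 replicate 1 and JQ1 replicate 2 their lower calls numbered 0, 0, 1 and 0 and their higher calls 0, 0, 0 and 3. Col1a2 was at 959 and 939.9 FPKM with vehicle and 1023 and 768 FPKM with JQ1 (−0.10 ± 0.30, adjusted p = 0.854).

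Among enzymes that cut the matrix, falls outnumbered rises. Of 18 tested metalloproteinases and inhibitors 6 fell and 1 rose, against 9.68% and 5.09% of all genes (median −0.30). Timp3, a matrix-bound inhibitor gene, measured 1.31 and 1.17 FPKM with vehicle and 4.67 and 4.76 FPKM with JQ1 (1.35 ± 0.21, adjusted p = 0.00212), and Mmp19 6.93 and 7.98 FPKM with vehicle and 3.36 and 2.23 FPKM with JQ1 (−1.17 ± 0.19, adjusted p = 0.00257). Replicates were close within groups in both, and both kept their calls, also with relative depth. Mmp9, a gelatinase gene, measured 13.6 and 8.11 FPKM with vehicle and 3.78 and 3.25 FPKM with JQ1 (−1.35 ± 0.31, adjusted p = 0.0139), with adjusted p = 0.0607 to 0.112 without vehicle replicate 1, JQ1 replicate 1 or JQ1 replicate 2. Lower members numbered 2, 2, 1 and 1 without vehicle replicates 1 and 2 and JQ1 replicates 1 and 2 in turn, and 3 with quantile normalization.

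Ligands of the TGF-beta family were among the falls. The list as a whole had 4 of 21 lower and 1 higher, against 9.68% and 5.09% of all genes. Inhba, which encodes the activin A subunit, measured 81.4 and 67.6 FPKM with vehicle and 9.55 and 6.40 FPKM with JQ1 (−3.09 ± 0.66, adjusted p = 0.0101), with adjusted p = 0.0510 to 0.0576 without each of the 4 libraries in turn. Tgfb2 measured 7.35 and 8.33 FPKM with vehicle and 1.76 and 2.65 FPKM with JQ1 (−1.47 ± 0.35, adjusted p = 0.0167, and 0.0605 to 0.133 without vehicle replicate 1, vehicle replicate 2 or JQ1 replicate 1). Of 8 tested Wnt pathway genes 3 fell. Notum, the gene of an enzyme that inactivates Wnt proteins, measured 12.6 and 11.3 FPKM with vehicle and 1.23 and 2.22 FPKM with JQ1 (−2.27 ± 0.27, adjusted p = 0.000555), and Tcf7, a transcription factor of the pathway that T cells also express, 7.97 and 7.92 FPKM with vehicle and 2.10 and 2.39 FPKM with JQ1 (−1.46 ± 0.19, adjusted p = 0.00103). Both kept their calls, also with relative depth, and the T cell marker Cd3e stayed under 1 FPKM in all 4 samples. Wnt10b, a ligand gene, fell as well (−1.40 ± 0.27, adjusted p = 0.00568, and 0.0510 to 0.0675 without vehicle replicate 2 or JQ1 replicate 1). Lower genes numbered 0, 1, 2 and 2 in the TGF-beta list and 3, 2, 2 and 3 in the Wnt list without vehicle replicate 1, vehicle replicate 2, JQ1 replicate 1 and JQ1 replicate 2.

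Myc, the best-known target of BET inhibition, measured 47.1 and 138 FPKM with vehicle and 44.2 and 67.1 FPKM with JQ1. Vehicle replicate 2 was high, the groups overlapped and Myc was not past the threshold (−0.56 ± 0.38, adjusted p = 0.336), nor was any of the 9 tested genes of its network. Of 32 ribosome biogenesis genes, many of them known Myc targets, 3 fell (Gar1, Srm and Dkc1) and none rose (median −0.29), and the share that fell was near the 9.68% of all genes. Srm, the spermidine synthase gene, measured 91.8 and 109.8 FPKM with vehicle and 55.5 and 56.8 FPKM with JQ1 (−0.83 ± 0.18, adjusted p = 0.0121), with adjusted p = 0.0769 to 0.1 without vehicle replicate 2 or JQ1 replicate 1, and 3, 0, 0 and 2 members were lower without vehicle replicate 1, vehicle replicate 2, JQ1 replicate 1 and JQ1 replicate 2. None of 81 cytosolic ribosomal protein genes was called (median −0.21), and 13 were lower without JQ1 replicate 2. Their summed level was 26380.0 and 24691 FPKM with vehicle and 18181 and 25714 FPKM with JQ1, and JQ1 replicate 1 stood apart below the other 3.

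The cell cycle lists held calls at rates near or below those of all genes, of which 9.68% fell and 5.09% rose. Of 25 G2/M and mitosis genes 3 fell (median −0.24), of 26 DNA replication genes 2 fell and 1 rose (0.06), and of 20 G1/S cyclins and CDK inhibitors 1 fell and 1 rose (0.17). Ccnd1, the gene of cyclin D1, measured 26.8 and 27.7 FPKM with vehicle and 9.82 and 15.0 FPKM with JQ1 (−1.10 ± 0.22, adjusted p = 0.00676), with adjusted p = 0.0502 to 0.0770 without vehicle replicate 2 or JQ1 replicate 1. Ube2c, a mitotic ubiquitin-conjugating enzyme gene, measured 104 and 104 FPKM with vehicle and 40.4 and 55.1 FPKM with JQ1 (−1.12 ± 0.27, adjusted p = 0.0173, and 0.0734 to 0.147 without vehicle replicate 1, vehicle replicate 2 or JQ1 replicate 1). The replication clamp gene Pcna was not past the threshold (0.22 ± 0.21, adjusted p = 0.503). No G2/M gene was lower without vehicle replicate 1, vehicle replicate 2 or JQ1 replicate 1, and 1, 0, 0 and 3 replication genes were lower without vehicle replicate 1, vehicle replicate 2, JQ1 replicate 1 and JQ1 replicate 2. With FPKM rescaled to a common sum 4 G1/S and 3 replication genes were higher.

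In the Bcl2 family, which sets the threshold of apoptosis, 1 of 14 genes rose and 4 fell, against 5.09% and 9.68% of all genes. Bcl2l11, the gene of the pro-apoptotic BH3-only protein BIM, measured 1.95 and 3.26 FPKM with vehicle and 9.20 and 6.14 FPKM with JQ1 (1.27 ± 0.35, adjusted p = 0.0323), and Bbc3, which encodes the BH3-only protein PUMA, 17.1 and 25.8 FPKM with vehicle and 4.69 and 7.74 FPKM with JQ1 (−1.64 ± 0.31, adjusted p = 0.00545). These 2 death-promoting genes moved in opposite directions. Adjusted p was 0.0674 to 0.222 for Bcl2l11 without vehicle replicate 1, vehicle replicate 2 or JQ1 replicate 1, and 0.0606 to 0.0686 for Bbc3 without vehicle replicate 2 or JQ1 replicate 1. Bcl2l1, the gene of the survival protein BCL-XL, fell (−0.70 ± 0.18, adjusted p = 0.0228, and 0.0763 to 0.199 without the 3 libraries named for Bcl2l11), and Mcl1 was 55.4 and 88.8 FPKM with vehicle and 86.9 and 94.9 FPKM with JQ1 (0.37 ± 0.21, adjusted p = 0.247). Fas, the death receptor gene, fell from 7.88 and 9.26 to 3.67 and 3.01 FPKM (−1.14 ± 0.21, adjusted p = 0.00534, and 0.0530 without vehicle replicate 2). The family's lower members numbered 2, 0, 0 and 4 without vehicle replicates 1 and 2 and JQ1 replicates 1 and 2 in turn.

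NRF2 is the transcription factor of the antioxidant and detoxification response. Of 21 of its targets 5 fell and none rose, against 9.68% and 5.09% of all genes (median −0.27). The glutathione transferase gene Gstt1 measured 20.7 and 23.9 FPKM with vehicle and 3.46 and 5.29 FPKM with JQ1 (−2.13 ± 0.26, adjusted p = 0.000748), and its relative Gsta4 135 and 131 FPKM with vehicle and 45.5 and 64.7 FPKM with JQ1 (−1.28 ± 0.22, adjusted p = 0.00356). Both kept their calls, Gstt1 also with relative depth. The ferritin genes Ftl1 (0.62 ± 0.24, adjusted p = 0.0979) and Fth1 (−0.47 ± 0.23, adjusted p = 0.182), the most abundant of the list, were not past the threshold. Lower NRF2 targets numbered 3, 2, 2 and 6 without vehicle replicates 1 and 2 and JQ1 replicates 1 and 2 in turn. With FPKM rescaled to a common sum 2 were also higher, and with quantile normalization 3 were lower.

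Of 28 autophagy and lysosome genes 6 fell and 1 rose, against 9.68% and 5.09% of all genes (median −0.20). Sqstm1, the gene of the autophagy receptor p62, measured 629.6 and 712 FPKM with vehicle and 257 and 284 FPKM with JQ1 (−1.31 ± 0.20, adjusted p = 0.00194) and kept its call, with adjusted p = 0.0525 with relative depth. Ulk1, the gene of the kinase that starts autophagy, measured 2.15 and 2.70 FPKM with vehicle and 9.04 and 6.77 FPKM with JQ1 and rose (1.37 ± 0.29, adjusted p = 0.00864, and 0.0595 to 0.0875 without vehicle replicate 1 or JQ1 replicate 1). The list had 3, 1, 2 and 6 members lower without vehicle replicates 1 and 2 and JQ1 replicates 1 and 2 in turn, and 3 with quantile normalization. Of 18 ATF4 and amino acid stress genes 2 rose and none fell. They were Slc7a5, the large neutral amino acid transporter gene, at 49.3 and 54.8 FPKM with vehicle and 101 and 99.7 FPKM with JQ1 (0.94 ± 0.16, adjusted p = 0.00291), which kept its call, and Sesn2, at 11.8 and 19.4 FPKM with vehicle and 30.8 and 31.3 FPKM with JQ1 (0.99 ± 0.28, adjusted p = 0.0362, and 0.101 to 0.234 without vehicle replicate 1, JQ1 replicate 1 or JQ1 replicate 2).

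Of 23 cholesterol synthesis and uptake genes 4 fell and 1 rose, against 9.68% and 5.09% of all genes (median −0.33). Fdft1, the squalene synthase gene, measured 26.9 and 35.0 FPKM with vehicle and 11.7 and 14.4 FPKM with JQ1 (−1.18 ± 0.23, adjusted p = 0.00590, and 0.0643 to 0.0644 without vehicle replicate 2 or JQ1 replicate 1). Lower members numbered 3, 0, 1 and 2 without vehicle replicates 1 and 2 and JQ1 replicates 1 and 2 in turn. Hypoxia and glycolysis genes had 2 of 27 lower (0 with FPKM rescaled to a common sum) and none higher, and Gapdh measured 2149 and 2093 FPKM with vehicle and 2017 and 2701 FPKM with JQ1 (0.14 ± 0.21, adjusted p = 0.686). Of 76 nuclear-encoded respiratory chain genes 2 fell (median −0.15), and 8 were lower without JQ1 replicate 2.

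Markers of other cells that the CD45-negative fraction could hold were summed. No macrophage marker of 6 was called, with sums of 198 and 272 FPKM with vehicle and 417 and 205 FPKM with JQ1. Of 15 tested genes of a longer macrophage list none was called (median 0.07), while with relative depth 2 were lower (median −0.89). Fibroblast markers (Pdgfra, Dcn, Lum and Col1a1) summed to 472 and 537 FPKM with vehicle and 622 and 359.8 FPKM with JQ1, where JQ1 replicate 1 was highest and JQ1 replicate 2 lowest. Within them Dcn, at 192 and 263 FPKM with vehicle and 81.2 and 94.3 FPKM with JQ1 (−1.35 ± 0.27, adjusted p = 0.00679, and 0.0634 to 0.0696 without vehicle replicate 2 or JQ1 replicate 1), and Pdgfra (−1.08 ± 0.24, adjusted p = 0.0113, and 0.0596 to 0.0708 without vehicle replicate 1, vehicle replicate 2 or JQ1 replicate 2) fell, while Col1a1 was 265 and 255 FPKM with vehicle and 528 and 252 FPKM with JQ1. Neutrophil markers summed to 22.5 and 21.5 FPKM with vehicle and 31.2 and 14.7 FPKM with JQ1, and 1 of the 4, Retnlg, fell (−1.25 ± 0.29, adjusted p = 0.0147, and 0.0506 to 0.143 without vehicle replicate 2, JQ1 replicate 1 or JQ1 replicate 2). T cell markers summed to 0.334 and 0.161 FPKM with vehicle and 0.915 and 0.505 FPKM with JQ1, and B cell markers to 0.568 and 1.01 FPKM with vehicle and 3.97 and 4.66 FPKM with JQ1. Endothelial markers summed to 2.03 and 2.35 FPKM with vehicle and 5.92 and 4.04 FPKM with JQ1, pericyte markers to 0.475 and 1.17 FPKM with vehicle and 1.77 and 1.55 FPKM with JQ1, adipocyte markers to 0.753 and 8.27 FPKM with vehicle and 1.45 and 5.12 FPKM with JQ1 and skeletal muscle markers to 3.54 and 1.66 FPKM with vehicle and 8.19 and 4.09 FPKM with JQ1. T cell, B cell, endothelial, pericyte and skeletal muscle sums were higher in both JQ1 libraries than in both vehicle libraries, but at low levels, and none of these markers was called. The 3 tested genes of a longer pericyte list summed the other way, to 54.2 and 43.0 FPKM with vehicle and 41.8 and 24.7 FPKM with JQ1. That sum was mostly Pdgfrb, the only member of the list with a fold change below zero (−0.71). The other tested members, Rgs5 and Mcam, were higher in both JQ1 libraries than in both vehicle libraries, and the median of the list was 0.64. Of 10 tested genes of a longer endothelial list none was called, though all 10 had a fold change above 0 (median 0.47). With relative depth 1 of these endothelial genes was higher (median 1.20). The part of other cells in the falls of matrix and epithelial genes was not tested.

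The same genes were then read in the groups given JQ1 together with anti-PD-L1 (2 libraries) or paclitaxel (3 libraries), each at 10 mg/kg. These comparisons use the JQ1 libraries again, so their values are given side by side. The antibody group, like JQ1 alone, carries 1 mouse code, so antibody and animal may not be told apart. JQ1 with anti-PD-L1 against JQ1 had 629 genes called (5.83%), or 60 without JQ1 replicate 1, 192 without JQ1 replicate 2, and 186 and 37 without replicates 1 and 2 of the antibody group. JQ1 with paclitaxel against JQ1 had 23 called (0.213%), and limma called 0 without either JQ1 replicate, while 1449 genes had an unadjusted p under 0.05 with all libraries. Brd2, higher with JQ1 alone, was 130.4 and 52.0 FPKM with the antibody added (−1.38 ± 0.33, adjusted p = 0.0304) and 171, 164 and 121 FPKM with paclitaxel added (−0.52 ± 0.30, adjusted p = 0.492). Habp4 was 12.2 and 12.2 FPKM with the antibody added (−1.98 ± 0.14, adjusted p = 2.03e-05) and 47.3, 40.1 and 42.2 FPKM with paclitaxel added (−0.23 ± 0.13, adjusted p = 0.471). Hist3h2a was 2.58 and 3.81 FPKM with the antibody added (−2.15 ± 0.32, adjusted p = 0.00687) and 21.3, 14.5 and 11.6 FPKM with paclitaxel added. With the antibody Habp4 and Hist3h2a lay near their vehicle levels, while 1 Brd2 value lay within the vehicle range and the other between vehicle and JQ1. With paclitaxel all 3 genes lay nearer to JQ1 alone. The 3-drug group, given JQ1 with both added drugs, carries several mouse codes and was not tested against JQ1 alone. There Brd2 was 58.2, 56.9 and 61.6 FPKM, Habp4 13.9, 14.5 and 13.3 FPKM and Hist3h2a 1.56, 1.19 and 1.72 FPKM. All 3 genes lay nearer to vehicle than to JQ1 alone in that group.

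Genes that fell with JQ1 were read in the same way. Cxcl1 was 992 and 937 FPKM with the antibody added (1.49 ± 0.29, adjusted p = 0.0138) and 351, 569 and 764 FPKM with paclitaxel added (0.65 ± 0.26, adjusted p = 0.312). Ifit3 was 3.54 and 5.48 FPKM with the antibody added (2.20 ± 0.23, adjusted p = 0.000856), and Vcam1 53.3 and 50.9 FPKM with the antibody added (1.34 ± 0.21, adjusted p = 0.00722). These 3 lay near their vehicle levels with the antibody. Il33 was 14.2 and 14.8 FPKM with the antibody added (1.64 ± 0.21, adjusted p = 0.00333), between JQ1 alone and vehicle. Notum and Gstt1 were called in neither comparison. Notum was 1.56 and 2.05 FPKM with the antibody added (0.06 ± 0.27, adjusted p = 0.914) and 2.53, 1.99 and 2.49 FPKM with paclitaxel added (0.31 ± 0.24, adjusted p = 0.638), and Gstt1 5.37 and 6.99 FPKM with the antibody added (0.43 ± 0.26, adjusted p = 0.352) and 3.76, 2.27 and 2.55 FPKM with paclitaxel added (−0.48 ± 0.24, adjusted p = 0.426). Of the 64 histone genes 18 were lower with the antibody added than with JQ1 alone, where 2.42% of all genes were. That count was 3 and 10 without JQ1 replicates 1 and 2, and 10 and 4 without replicates 1 and 2 of the antibody group. With paclitaxel, where 0.213% of all genes were called, no histone gene was.

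**Figure D4:**
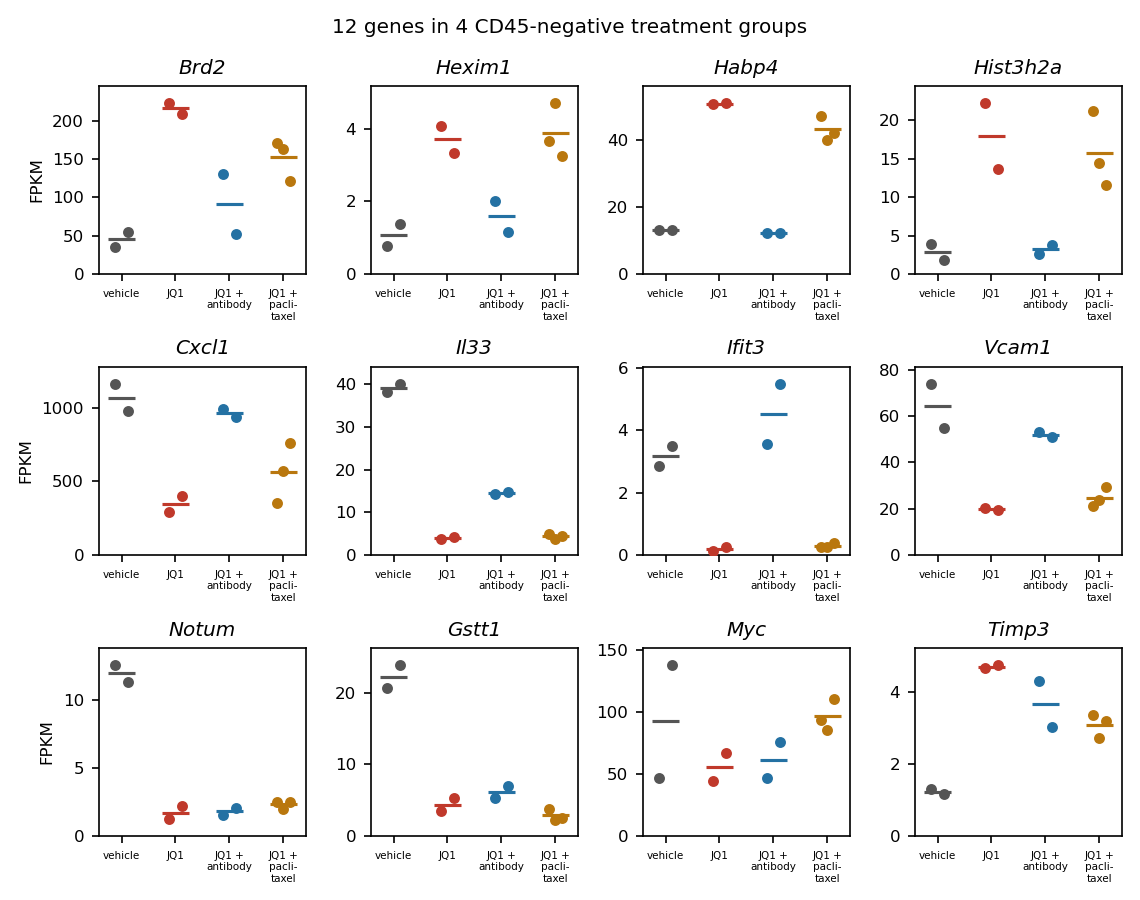
FPKM of 12 genes in the CD45-negative samples of 4 groups, with 1 point per sample and a bar at the group mean. Brd2, Hexim1, Habp4 and Hist3h2a are higher with JQ1 and with JQ1 and paclitaxel than with vehicle. Cxcl1, Ifit3 and Vcam1 are low with JQ1 and near vehicle with the antibody added. Notum and Gstt1 are low in the 3 plotted groups given JQ1. The 3-drug group, also given JQ1, is not plotted (Notum 4.17, 7.26 and 3.76 FPKM, Gstt1 12.5, 8.43 and 7.43 FPKM).

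The CD45-positive cells of the same 4 tumours were analysed in a separate table with its own normalization, so no test was made between the fractions. There JQ1 changed 108 of 10340 genes (1.04%), and 2, 5, 2 and 134 without vehicle replicates 1 and 2 and JQ1 replicates 1 and 2. Of the 549 genes that rose in CD45-negative cells 511 were tested in CD45-positive cells, and 3 rose there, which is also 3 of the 63 that rose there in all. Of the 1043 that fell 852 were tested and 16 fell, of 45 in all. Median fold changes in CD45-positive cells were 0.42 for the 511 genes, −0.48 for the 852 genes and −0.01 for all 9618 genes tested in both. Brd2 was 28.2 and 47.3 FPKM with vehicle and 74.1 and 129 FPKM with JQ1 (1.39 ± 0.47, adjusted p = 0.157) and Hexim1 0.993 and 1.99 FPKM with vehicle and 2.84 and 5.75 FPKM with JQ1 (1.06 ± 0.41, adjusted p = 0.197), higher in both JQ1 samples but not past the threshold. Timp3 was 0.935 and 0.718 FPKM with vehicle and 6.03 and 5.03 FPKM with JQ1 and rose there as well (1.84 ± 0.25, adjusted p = 0.0184). Of 62 histone genes tested there none was called (median −0.08), and Il33 was 1.66 and 0.599 FPKM with vehicle and 0.320 and 0.376 FPKM with JQ1. Ccr2, more abundant there, fell (−3.77 ± 0.56, adjusted p = 0.0245).

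Fold changes in CD45-negative cells moved with transcript length. Genes were placed in 5 classes of nearly equal size by their longest transcript in GENCODE M21, from 109 to 1856 bases in the shortest class to 5017 bases and more in the longest. The median fold change was −0.26, −0.15, −0.05, 0.04 and 0.16 from the shortest to the longest class. In the shortest class 15.6% of genes fell and 2.58% rose, and in the longest 4.11% fell and 6.84% rose. The median transcript was 3990 bases for genes that rose, 2395 for genes that fell and 3303 for genes not called, over the 97.0% or more of genes with a known length. JQ1 replicates 1 and 2 differed from each other along the same axis, by a median of −0.24 in the shortest and 0.14 in the longest class, while the vehicle libraries differed by −0.07 in both. After length was regressed out of each library, 1400 genes were called (473 higher, 927 lower), and of the 1555 of the 1592 genes with a known length 1239 kept their call and direction. Of 162 named genes that were called, 135 were called in that fit, 23 were not, among them Fbn1 (adjusted p = 0.0974), Meg3 (0.0530) and Retnlg (0.0679), and 4 (Hbb-b1, Figf, Prl2c4 and Pvrl2) had no length and were not tested there. All 64 histone genes were tested, and 30 were higher. The part of transcript length in the other calls was not tested.

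**Figure D5:**
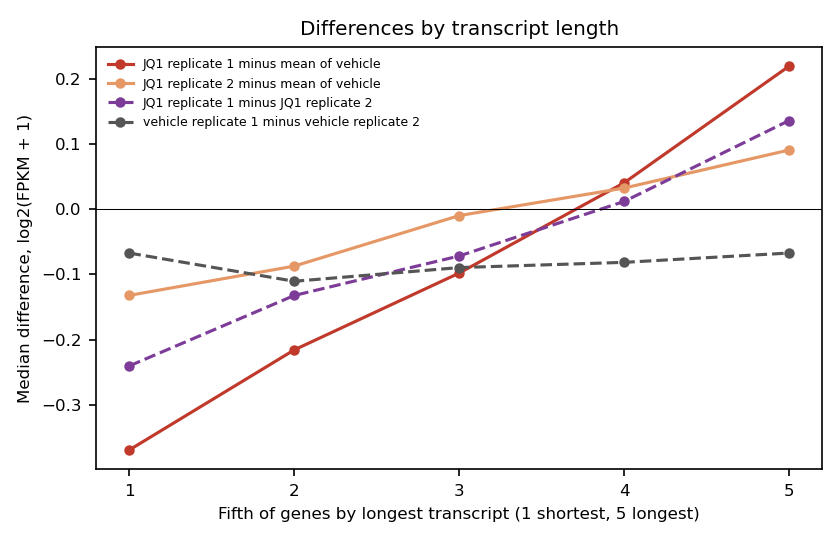
Median difference in log2(FPKM + 1) over the genes of each of the 5 classes of transcript length, for each JQ1 library against the mean of the vehicle libraries (solid lines) and between the 2 libraries of a group (dashed lines). JQ1 replicate 1 against vehicle runs from −0.37 to 0.22, JQ1 replicate 2 from −0.13 to 0.09, and the vehicle libraries differ by −0.07 to −0.11 in every class.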

How the data were processed

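The deposited CD45-negative and CD45-positive tables hold FPKM per gene symbol, which the authors computed from reads aligned with STAR 2.5.1b to mm9, per the submitters' processing notes. The unit was inferred from the values, since the label speaks of counts, and the tool for gene values is not given in the sources used here. Libraries came from under 10 ng of RNA with a SMARTer low-input kit, per the labels' protocols. Of 24353 symbols, 10780 with at least 1 FPKM in at least 2 of the 12 CD45-negative libraries were kept. A limma 3.58.1 model (R 4.3.3) with a variance trend was fitted to log2(FPKM + 1) over the 5 groups of the fraction, and the CD45-positive table was fitted apart. Tests were two-sided, adjusted over all genes of a comparison, and were tested on simulated data. Precision comes from the spread between libraries, since FPKM hold no read totals.

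The comparison, the gene lists and the tests were chosen with earlier results of these data known. The rule for naming genes took 12 from each end of the fold changes, among called genes whose groups did not overlap and whose mean log2(FPKM + 1) reached 2. Added to them were up to 4 called genes each way and the 2 most abundant uncalled genes of each of 64 lists (every tested member of lists of up to 8), and Brd2, Hexim1, Myc, Cd274 and Ptprc. Some genes that this rule names are not reported here. Promoters are from RefSeq (GRCm38.p6), whose table matched 8238 of the tested genes, so lists were not compared by motif. Plots and tables used matplotlib 3.10.9 and pandas 2.3.3 under Python 3.11.15. The alternatives tried numbered 23.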

Additional observations from a re-analysis of the deposited data

Results flagged for a closer look

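In 5 named genes every JQ1 sample lay below every vehicle sample in CD45-negative cells and above every vehicle sample in CD45-positive cells. The fractions come from tables normalized apart, and the difference between them was not tested. Tcf7 fell in CD45-negative cells (−1.46) and was 1.22 and 0.808 FPKM with vehicle and 14.8 and 8.05 FPKM with JQ1 in CD45-positive cells (2.58, adjusted p = 0.0245). It is a T cell gene as well as a Wnt pathway gene, and T cell markers summed to 5.55 and 3.13 FPKM with vehicle and 49.5 and 13.6 FPKM with JQ1 in that fraction. Smarca2 fell in CD45-negative cells (−1.57) and was 2.96 and 2.94 FPKM with vehicle and 5.76 and 5.87 FPKM with JQ1 in CD45-positive cells (0.79, adjusted p = 0.124). It encodes a chromatin remodelling ATPase. Actg2 fell in CD45-negative cells (−1.30) and was 0.436 and 0.0983 FPKM with vehicle and 0.573 and 1.82 FPKM with JQ1 in CD45-positive cells (0.75, adjusted p = 0.350). This is a smooth muscle actin gene. Tnfaip3 fell in CD45-negative cells (−1.33) and was 61.5 and 89.4 FPKM with vehicle and 122 and 122 FPKM with JQ1 in CD45-positive cells (0.71, adjusted p = 0.238). Cxcl1 fell in CD45-negative cells (−1.64) and was 1547 and 1725 FPKM with vehicle and 2443 and 1919 FPKM with JQ1 in CD45-positive cells (0.41, adjusted p = 0.716). Tcf7 was called in both fractions, and the other 4 were not called in CD45-positive cells, where calls numbered 2, 5 and 2 without vehicle replicate 1, vehicle replicate 2 and JQ1 replicate 1. Groups of 2 or 3 libraries were not examined for single outlying samples.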

How the results depend on the processing

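Against 1592 genes called, other pseudocounts, filters, scalings and variance settings called between 1204 and 1576. None of the 162 named genes that were called changed sign in any alternative that tested it. Rescaling FPKM to a common sum called 852 higher and 724 lower, so that rises were the majority, and 1266 of the 1592 calls were kept. Quantile normalization kept 1340. The median over all genes turned from −0.05 to 0.10 with rescaling and 0.04 with quantile normalization. With rescaling the medians of several lists also turned, among them the chemokine (0.14), collagen (0.07) and respiratory chain (0.01) lists. With relative depth others turned, among them the interferon gamma list (0.01) and the interferon and antiviral sensing list (−0.39). The longer leukocyte (−0.66) and macrophage (−0.89) lists turned there as well. The fit with relative depth as a covariate called 310 genes (64 higher, 246 lower), 281 of them among the 1592 (58 higher, 223 lower). The fit with 1 value per mouse code called 21 (3 higher, 18 lower), with fewer samples. Over the fits that leave out 1 library, calls ranged from 424 to 1743, higher calls from 117 to 629 and lower calls from 307 to 1114, and the low ends came without JQ1 replicate 1. The labels share right and left sides rather than an animal across groups, and right tumours deviated together by correlations of 0.04 to 0.16 between groups, so sides were not treated as paired. With tumour side as a replicate block 1527 genes were called (495 higher, 1032 lower). Of 162 named genes that were called, 44 kept the call without each of the 4 compared libraries in turn and 35 in every alternative that tested them but the value per mouse code. Most of the 162 calls were lost with 1 value per mouse code. Depth and JQ1 cannot be told apart where both JQ1 libraries are shallower. The length adjustment was chosen after seeing the data.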

Other observations

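Genes of caveolae, small pits of the plasma membrane, were lower with JQ1 in 4 of 7 tested (9.68% of all genes fell). These groups were picked after their values were seen and have no test of their own. Cav1, the main coat protein gene, measured 168 and 186 FPKM with vehicle and 61.9 and 65.2 FPKM with JQ1 (−1.46 ± 0.20, adjusted p = 0.00104), and its partner Cav2 13.8 and 14.4 FPKM with vehicle and 3.02 and 3.59 FPKM with JQ1 (−1.81 ± 0.22, adjusted p = 0.000626). The cavin genes Sdpr, at 50.5 and 44.9 FPKM with vehicle and 9.97 and 11.6 FPKM with JQ1 (−2.05 ± 0.25, adjusted p = 0.000687), and Prkcdbp, at 163 and 196 FPKM with vehicle and 53.3 and 61.4 FPKM with JQ1 (−1.62 ± 0.18, adjusted p = 0.000341), fell as well, while Ptrf, Ehd2 and Pacsin2 were not called.

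Of 10 tested angiogenic factors 5 fell, Angpt4, Angpt1, Figf, Pdgfc and Vegfc, although Vegfc was not called without vehicle replicate 2, without JQ1 replicate 2 or with relative depth. Angpt1, a ligand of the endothelial receptor TIE2, measured 24.2 and 21.6 FPKM with vehicle and 7.46 and 6.08 FPKM with JQ1 (−1.62 ± 0.23, adjusted p = 0.00146). Of 10 genes of lytic cell death 3 fell: Mlkl, the executioner of necroptosis, at 40.5 and 43.6 FPKM with vehicle and 14.6 and 20.1 FPKM with JQ1 (−1.24 ± 0.20, adjusted p = 0.00241), Gsdmd, a pore-forming protein gene, at 42.5 and 34.1 FPKM with vehicle and 15.3 and 14.1 FPKM with JQ1 (−1.31 ± 0.18, adjusted p = 0.00116), and Casp12, at 8.61 and 7.39 FPKM with vehicle and 3.11 and 2.69 FPKM with JQ1 (−1.21 ± 0.19, adjusted p = 0.00256). Of 5 tested apolipoprotein L genes 4 fell, among them the near-identical copies Apol9a and Apol9b, and 1 of the 4, Apol10b, was not called without vehicle replicate 1, without JQ1 replicate 1 or with relative depth.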
